A study of Mus musculus with 6 samples.

Results

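The formyl peptide receptors Fpr1 and Fpr2, the anaphylatoxin receptors C5ar1, C5ar2 and C3ar1, the platelet-activating factor receptor Ptafr, the metabolite receptors Hcar2 and Gpr84, and the chemerin receptor Cmklr1 were examined in cultured mouse microglia. These 9 genes, of 41079 listed in the count table, are chemoattractant and metabolite-sensing G protein-coupled receptors of myeloid cells. They were taken by gene symbol, and the list was chosen on values of this same comparison, so their levels and differences are given as a description, with no p-value. Where a member is said to be called, this states only on which side of the threshold of the fit over all genes it lay, and supports nothing. RNA-seq compared 3 libraries from control cultures with 3 from optimized cultures. All cells were primary microglia from brains of C57Bl/6N mice aged 1 to 3 days, with the brains of several pups pooled in a flask, grown with conditioned medium of L-929 cells (a fibroblast line that secretes M-CSF) and collected by shaking. Control and optimized cultures were both kept in serum-free DMEM/F12, after a brief time in medium with serum while the cells attached. Optimized cultures also received human TGFbeta, human IL34 and human CX3CL1 at 100 ng/mL each. Per the study's methods, cholesterol, insulin-transferrin-selenium and a collagen IV coating were added as well. The share of each component in a difference therefore cannot be told apart. The labels number the libraries within a condition but do not say whether they came from separate cultures, although the study calls them biological replicates, so every p-value below measures the spread between these libraries.

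Receptors of this kind let phagocytes sense damage and infection at a distance. Formyl peptides are shed by bacteria and by broken mitochondria, C3a and C5a are cut from complement proteins where complement is active, and platelet-activating factor and chemerin are released in inflamed tissue. Most of the receptors couple to inhibitory G proteins of the Gi family, whose freed beta-gamma subunits drive phosphoinositide 3-kinase gamma, phospholipase C beta, calcium release and migration, and receptor kinases and arrestins then switch the signal off. In the brain, microglia carry many of them.

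Library totals lay between 20628148 and 27261839 counts, and 14618 genes passed the filter on low counts. Of these, edgeR's quasi-likelihood test called 2142 higher and 2218 lower in the optimized cultures at an adjusted p under 0.05, and the median log2 fold change of all tested genes was 0.008. The microglial label held: the summed level of 8 microglial markers was 6449 to 6556 CPM (counts per 1000000) in control libraries and 11980 to 14330 CPM in optimized libraries, with 6 markers higher (among them Tmem119, Cx3cr1 and P2ry12) and 2 lower (Aif1 and Csf1r). Other cell types were sparse. Markers of astrocytes summed to 27.1 to 30.0 CPM in control and 18.3 to 20.8 CPM in optimized libraries, those of neurons to 2.05 to 3.41 and 3.93 to 4.26 CPM, those of oligodendrocytes to 125 to 140.3 and 156 to 189.6 CPM, and those of fibroblasts and endothelial cells to 14.9 to 20.3 and 16.1 to 49.5 CPM. The 5 monocyte markers summed to 6.51 to 7.75 and 18.9 to 23.4 CPM, most of it F13a1. Likewise, most of the oligodendrocyte sum was Mbp (means 94.2 and 119 CPM). The lower astrocyte sum came mostly from Aldh1l1 (means 16.5 and 4.64 CPM), the only astrocyte marker called. Of the astrocyte markers not called, Gfap (4.18 and 4.68 CPM) and Gja1 (5.64 and 7.94 CPM) had higher optimized means. Aqp4 and Slc1a2 had lower ones, so the sum does not tell whether astrocytes were fewer. Optimized replicate 1 stood apart: it held 1534 counts of the neutrophil granule gene Ltf against 3 or fewer in each of the other 5 libraries, and 54 counts of Plac8 against 1 or fewer. The neutrophil sum was therefore 74.5 CPM there against 0.403 to 0.481 CPM in control libraries, while Ly6g, S100a9, Mpo, Elane and Ngp were at 0 in all 6 libraries and S100a8 had 2, 4 and 6 control and 30, 72 and 30 optimized counts.

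The members' genes share features the choice did not use. In the GENCODE M39 annotation of GRCm39, 8 of 9 carry their whole coding sequence in 1 exon, and C5ar1 in 2. The members include 2 pairs of direct neighbours. Fpr1 (chr17:18096733-18104202, minus strand) and Fpr2 (chr17:18108070-18114215, plus strand) lie 3867 bases apart and are transcribed away from each other, and C5ar1 (chr7:15980668-15993465, minus strand) and C5ar2 (chr7:15968503-15978121, minus strand) lie 2546 bases apart in the same orientation. No protein-coding gene lies within either gap. The 250 bases upstream of the annotated start site of each pair are shown, because both genes of the first pair were lower in the optimized cultures while those of the second differed in opposite directions. The windows are chr17:18104203-18104452 (minus strand) for Fpr1, chr17:18107820-18108069 (plus strand) for Fpr2, chr7:15993264-15993513 (minus strand) for C5ar1 and chr7:15973739-15973988 (minus strand) for C5ar2, each 5′ to 3′ with CAGACA in capitals.
Fpr1: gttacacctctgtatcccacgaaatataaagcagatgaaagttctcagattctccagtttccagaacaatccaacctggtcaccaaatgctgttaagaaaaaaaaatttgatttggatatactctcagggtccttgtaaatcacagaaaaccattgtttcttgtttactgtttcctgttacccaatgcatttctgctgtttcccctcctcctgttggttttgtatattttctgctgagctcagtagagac
Fpr2: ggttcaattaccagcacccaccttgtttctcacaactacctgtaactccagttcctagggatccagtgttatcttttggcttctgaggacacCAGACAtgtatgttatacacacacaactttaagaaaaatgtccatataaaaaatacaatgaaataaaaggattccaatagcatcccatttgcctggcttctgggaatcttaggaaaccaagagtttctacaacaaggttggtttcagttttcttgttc
C5ar1: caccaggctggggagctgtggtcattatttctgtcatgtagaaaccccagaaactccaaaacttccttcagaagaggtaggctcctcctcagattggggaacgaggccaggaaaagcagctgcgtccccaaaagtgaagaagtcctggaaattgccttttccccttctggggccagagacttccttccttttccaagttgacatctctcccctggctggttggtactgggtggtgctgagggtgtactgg
C5ar2: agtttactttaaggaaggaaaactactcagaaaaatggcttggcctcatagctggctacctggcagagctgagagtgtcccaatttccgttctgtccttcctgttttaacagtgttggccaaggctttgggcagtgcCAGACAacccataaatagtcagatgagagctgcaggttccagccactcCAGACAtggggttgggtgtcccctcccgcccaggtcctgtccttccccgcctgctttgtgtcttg
CAGACA, searched on both strands, is a run of the kind that SMAD proteins of the TGF-β pathway are known to bind. It stood once in the Fpr2 window, 158 bases before the start, in 2 copies in the C5ar2 window, 113 and 65 bases before it, and nowhere in the windows of Fpr1 and C5ar1. Within the whole group it stood in 6 of 9 windows (Fpr2, C5ar2, C3ar1, Ptafr, Hcar2 and Cmklr1), against 15.6% of 21757 windows of all protein-coding genes. The genes with and without it thus include higher and lower members alike. Of the other motifs searched on both strands, the PU.1 core GAGGAA stood in 1 window (Ptafr; 22.9% of all windows), the AP-1 motif TGANTCA in 2 (C3ar1 and Gpr84; 6.18%), and the interferon response core GAAANNGAAA (3.32%) and the NF-κB consensus (4.23%) in none of the 9. A match describes letters only. The start sites are annotated, not measured here, and both C5a receptor genes have other annotated transcripts that begin further upstream (C5ar1 has 3 transcripts in all and C5ar2 has 7), so that part of the C5ar1 window and the whole C5ar2 window lie inside the annotated gene.

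Of the 9 receptors, 6 were called lower (Fpr1, Fpr2, C5ar1, C3ar1, Ptafr and Hcar2), 2 were called higher (C5ar2 and Gpr84), and Cmklr1 was not called. Among all tested genes 29.8% were called, 15.2% lower and 14.7% higher. The control and optimized libraries did not overlap for 8 of the 9, against 43.9% of all tested genes. Since the list was selected on these values, nothing is read from these counts. The median log2 fold change over the 9 was -0.52, and single genes ranged from -5.92 to 0.95. In bulk RNA, fewer cells that carry a receptor and less of its mRNA per cell cannot be told apart.

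**Figure D1:**
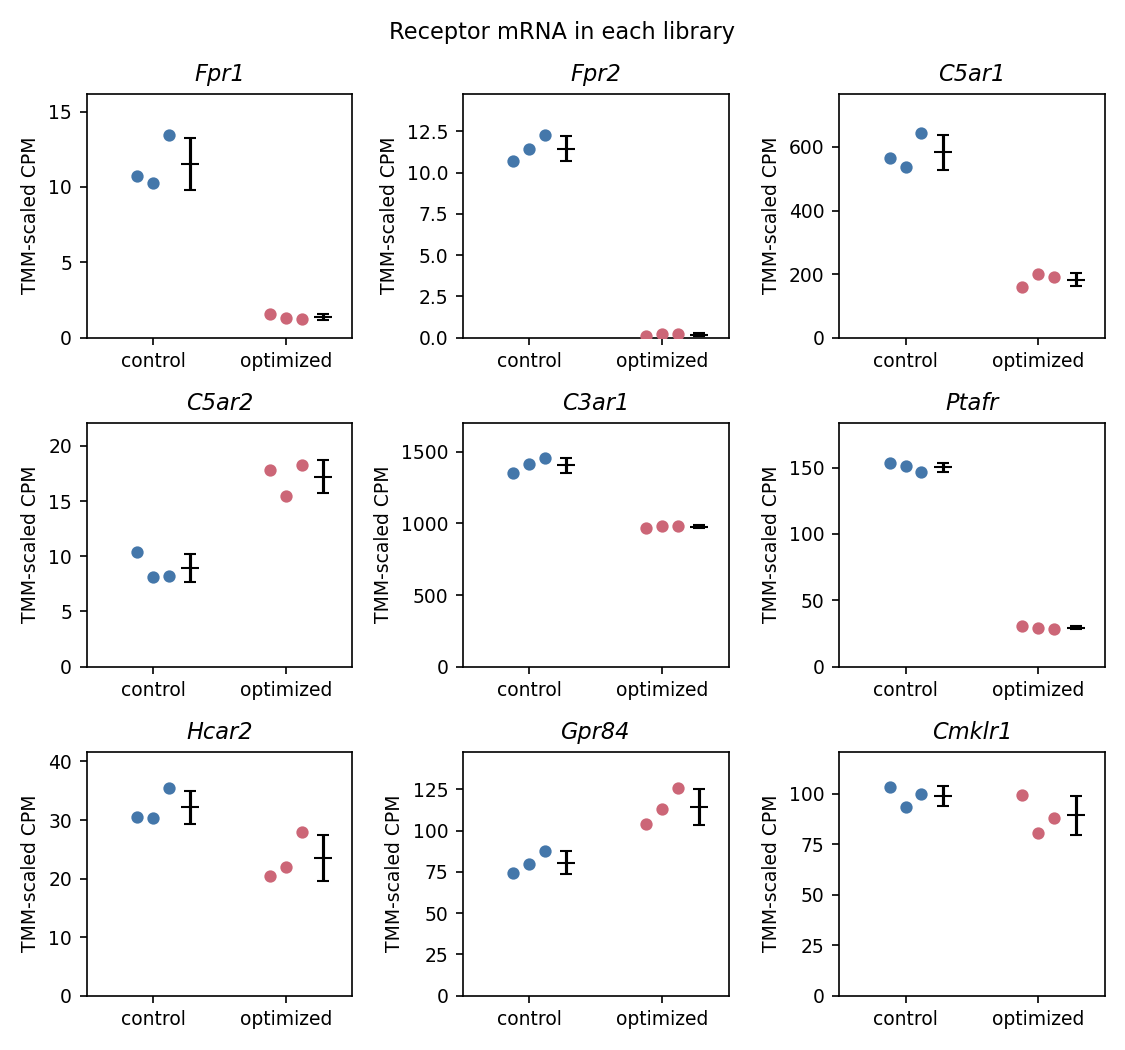
CPM scaled by trimmed mean of M-values (TMM) of the 9 receptors on linear axes from 0, with 3 control libraries in blue, 3 optimized libraries in red, and the mean and SD of each condition in black. The points of the conditions are apart in 8 panels and overlap for Cmklr1, and those of C5ar2 and Gpr84 lie higher in the optimized cultures.

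Fpr2, a receptor with many ligands that include formyl peptides, serum amyloid A and annexin A1, stood furthest apart. The control libraries held 245, 280 and 335 of its counts, and the optimized libraries 2, 5 and 5. Every optimized library was thus near the limit of detection while every control library was not. Mean levels were 11.5 ± 0.777 CPM (SD, n = 3) in control and 0.183 ± 0.0780 CPM (SD, n = 3) in optimized cultures, a log2 fold change of -5.92 ± 0.25 (SE), which placed the gene 7 from the lowest of 14618. With 12 optimized counts in all, the ratio of the summed levels was 62.6 with a 95% counting interval of 35.7 to 122, which covers counting error only.

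Fpr1, the high-affinity receptor for bacterial and mitochondrial formyl peptides, had the same control level as its neighbour but a smaller difference. The control libraries held 246, 252 and 368 of its counts, and the optimized libraries 33, 30 and 26. Its mean was 11.5 ± 1.72 CPM (SD, n = 3) in control and 1.37 ± 0.171 CPM (SD, n = 3) in optimized cultures, 8.41-fold lower, with a log2 fold change of -3.07 ± 0.19 (SE). Per length, the ratio of Fpr1 to Fpr2 within a library was 0.984, 0.882 and 1.08 in control cultures and 16.2, 5.88 and 5.09 in optimized cultures. The pair was therefore near parity in every control library and dominated by Fpr1 in every optimized one, with a denominator of only 2 to 5 counts. The coding sequences of Fpr1 and Fpr2 were 69.1% identical, with a longest shared run of 50 bases between their transcripts. Fpr2 shares 92 exon bases with Fpr3, which is 88.1% identical to it and had 0 counts in all 6 libraries, and how reads on such shared bases were assigned is not given in the sources used here.

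C5ar1, the signalling receptor for C5a on phagocytes, was among the most abundant of the 9. Its level was 567, 538 and 644 CPM in control and 159, 199.5 and 190.1 CPM in optimized libraries. The lowest control library stood well above the highest optimized one. The means were 583 ± 54.7 and 183 ± 21.4 CPM (SD, n = 3 each), a 3.19-fold lower level and a log2 fold change of -1.67 ± 0.12 (SE).

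C5ar2, which also binds C5a but does not couple to G proteins and recruits arrestin instead, lay the other way. It had 10.4, 8.12 and 8.24 CPM in control and 17.8, 15.5 and 18.3 CPM in optimized libraries. All 3 optimized libraries were above all 3 control libraries. The means of 8.92 ± 1.29 and 17.2 ± 1.49 CPM (SD, n = 3 each) gave a 1.93-fold higher level and a log2 fold change of 0.95 ± 0.13 (SE). Within a library, FPKM of C5ar1 divided by FPKM of C5ar2 was 111, 135 and 159 in control cultures and 18.2, 26.2 and 21.2 in optimized cultures. The balance between the C5a receptors thus moved 6.18-fold on the ratio of the means (135 ± 24.2 against 21.9 ± 4.08, SD, n = 3 each), while C5ar1 stayed the more abundant by far in each library. The coding sequences were 52.5% identical and the transcripts shared no run longer than 19 bases. C5ar2 shares 127 exon bases with the listed gene Gm26473 on the same strand.

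C3ar1, the receptor for C3a, was the most abundant member in both conditions. It had 1350, 1411 and 1454 CPM in control and 966, 985 and 980 CPM in optimized libraries. The conditions did not overlap, and the spread was narrow, with a coefficient of variation of 3.72% and 0.995%. The log2 fold change was -0.52 ± 0.09 (SE), a 1.44-fold lower level. The FPKM ratio of C3ar1 to C5ar1 was 1.45 ± 0.111 (SD, n = 3) in control and 3.23 ± 0.367 (SD, n = 3) in optimized cultures, so that the anaphylatoxin receptors C3ar1 and C5ar1 were closer in level in the control cultures.

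Ptafr, the receptor for the phospholipid platelet-activating factor, had 153, 151 and 147 CPM in control and 30.7, 29.5 and 28.1 CPM in optimized libraries. Replicates were tight on both sides and the conditions were far apart. Its mean was 150.3 ± 3.38 CPM against 29.4 ± 1.32 CPM (SD, n = 3 each), 5.11-fold lower, with a log2 fold change of -2.35 ± 0.08 (SE), the smallest SE of the 9.

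The metabolite receptors Hcar2 and Gpr84 lay on opposite sides. Hcar2, which senses the ketone body beta-hydroxybutyrate and niacin, had 30.6, 30.4 and 35.5 CPM in control and 20.4, 22.05 and 27.9 CPM in optimized libraries. The highest optimized library came close to the lowest control library, and the log2 fold change was -0.46 ± 0.13 (SE). It lay on the other side of the threshold when control replicate 1, 2 or 3 was left out (-0.50, -0.50 and -0.39). Gpr84, a receptor for medium-chain fatty acids that is known to rise in inflamed microglia, had 74.1, 79.9 and 87.8 CPM in control and 104, 113 and 126 CPM in optimized libraries. It was higher in each optimized library than in any control library, with a log2 fold change of 0.51 ± 0.10 (SE), a 1.42-fold higher level. The FPKM ratio of Gpr84 to Hcar2 was 3.04 ± 0.128 (SD, n = 3) in control and 5.95 ± 0.419 (SD, n = 3) in optimized cultures.

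Cmklr1, the signalling receptor for chemerin, was the only one of the 9 whose libraries overlapped. It had 103, 93.6 and 100 CPM in control and 99.4, 80.4 and 88.0 CPM in optimized libraries. The log2 fold change of -0.15 ± 0.10 (SE) was small, near the SD of log2 CPM within conditions (0.12).

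**Figure D2:**
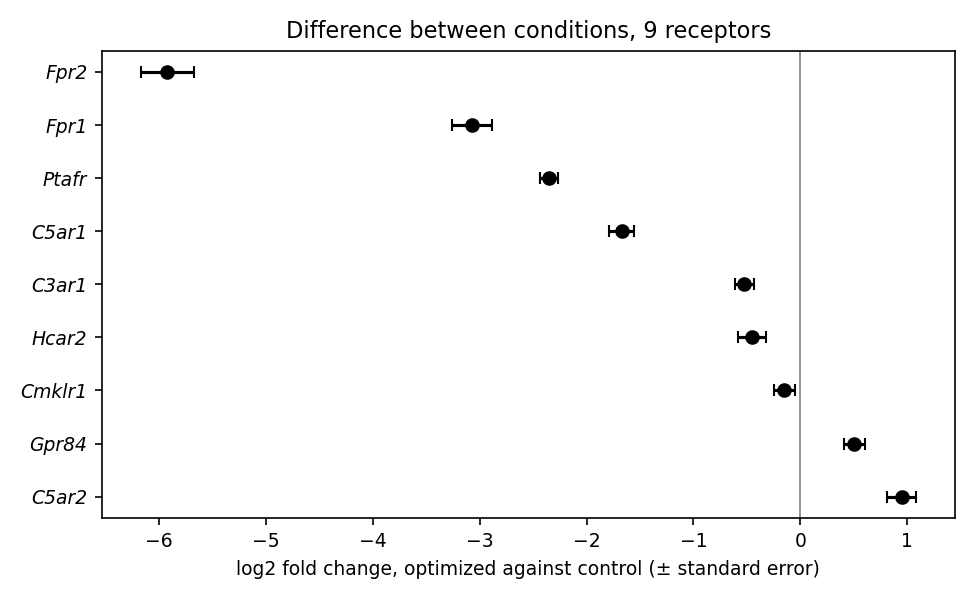
The log2 fold change of each receptor, optimized against control, with its standard error from the edgeR fit on 3 libraries per condition (x axis; the grey line marks 0). Fpr2 at -5.92 lies furthest to the left, C5ar2 at 0.95 furthest to the right, and the error bars of C3ar1 and Hcar2 overlap.

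The direction of these values did not turn on the library that stood apart. Without optimized replicate 1 the log2 fold changes were -5.63 for Fpr2, -3.18 for Fpr1, -1.58 for C5ar1, 0.92 for C5ar2, -0.52 for C3ar1, -2.38 for Ptafr, -0.37 for Hcar2, 0.57 for Gpr84 and -0.23 for Cmklr1. Each kept its sign, and Cmklr1 then lay past the threshold. Neutrophils are known to carry Fpr1, Fpr2 and C5ar1. The library with the Ltf counts had 1.56, 0.0947 and 158.6 CPM of them. The other optimized libraries had 1.28 and 1.26 CPM of Fpr1, 0.213 and 0.242 CPM of Fpr2, and 199.5 and 190.1 CPM of C5ar1. Fpr1 was thus highest and the others lowest in the library with the Ltf counts. Whether neutrophils added to these levels was not tested.

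Levels between genes were compared per length, on the deposited FPKM. The gene lengths used for FPKM are not given in the sources used here. The place of C5ar2, with 7 annotated transcripts, and the size of the C5ar1 to C5ar2 ratio depend on them. In control cultures the order was C3ar1 (mean 332 FPKM), C5ar1 (229.9), Gpr84 (50.9), Ptafr (42.0), Cmklr1 (26.7), Hcar2 (16.8), Fpr2 (8.98), Fpr1 (8.80) and C5ar2 (1.73). Only the neighbours Fpr2 and Fpr1 overlapped. In optimized cultures it was C3ar1 (209.7 FPKM), Gpr84 (65.6), C5ar1 (65.4), Cmklr1 (21.9), Hcar2 (11.1), Ptafr (7.47), C5ar2 (3.04), Fpr1 (0.955) and Fpr2 (0.130). Here only Gpr84 and C5ar1 overlapped. The order thus differed mainly in that Ptafr stood below Cmklr1 and Hcar2, C5ar2 above both formyl peptide receptors, and Gpr84 level with C5ar1. Against all tested genes, C3ar1 lay above 99% in control and 98.4% in optimized cultures, whereas Fpr2 lay above 63.4% and 3.86%, and Ptafr above 90.7% and 61.5%.

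The summed FPKM of the 9 receptors was 708.5, 714.8 and 729.8 in control and 382.7, 371 and 402.5 in optimized libraries. C5ar1 and C3ar1 together made up most of it, with mean shares of 32% and 46.3% in control cultures. In the optimized cultures the mean share of C5ar1 was 17%, that of C3ar1 54.4% and that of Gpr84 17%, against 7.08% for Gpr84 in control cultures.

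**Figure D3:**
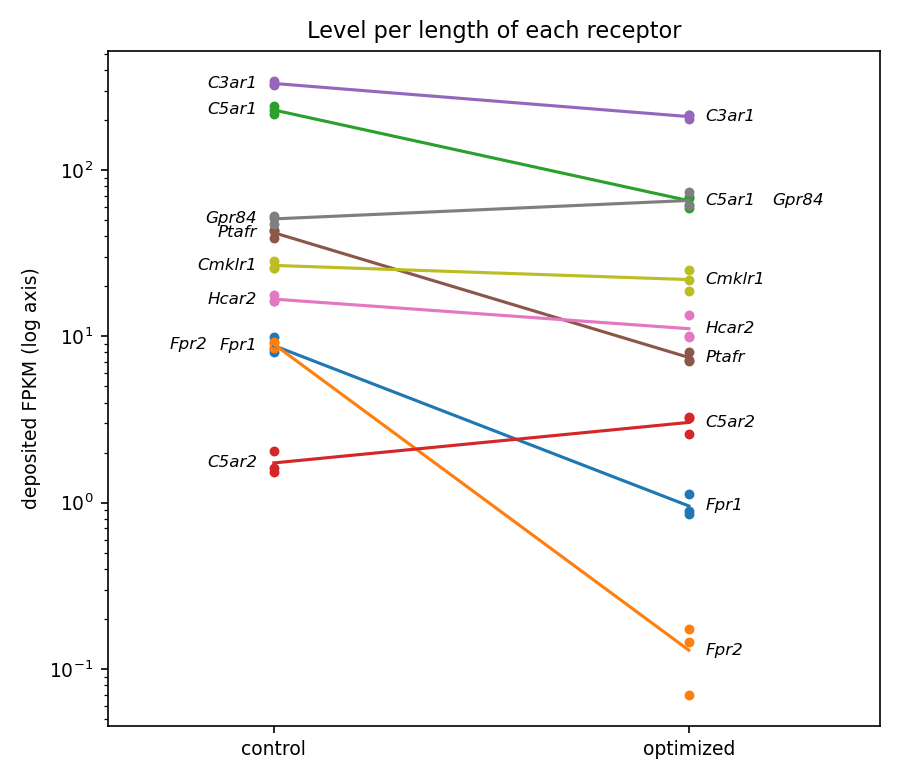
Deposited FPKM of the 9 receptors on a log axis, with a point for each library and a line between the condition means. C3ar1 is at the top in both conditions, the line of Fpr2 drops from 8.98 to 0.130, and the lines of Ptafr and C5ar2 cross others.

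Among 26 other chemoattractant, lipid and metabolite receptors of myeloid cells, 16 had fewer than 10 counts in every library and were not tested. Fpr3, Fpr-rs3, Fpr-rs4, Fpr-rs6, Fpr-rs7, Ffar2, Ffar3 and Oxgr1 had no count in any library, so that of the formyl peptide receptor family only Fpr1 and Fpr2 were detected. The leukotriene B4 receptor gene Ltb4r1 and the succinate receptor gene Sucnr1 had at most 1 count in any library. Of the 10 tested, 2 rose, 6 fell and 2 did not pass, and their median log2 fold change was -0.40. Gpr132, a receptor linked to oxidized lipids, fell most (17, 21 and 30 control counts, and 2, 0 and 3 optimized counts; log2 fold change -3.46 ± 0.63 SE, edgeR adjusted p = 0.00215). The leukotriene receptor gene Cysltr1 (-0.81), the chemerin-binding receptor gene Ccrl2 (-0.75), the lysophosphatidic acid receptor genes Lpar5 (-0.57) and Lpar6 (-0.36), and the sphingosine-1-phosphate receptor gene S1pr2 (-0.44) also fell. The call for Lpar6 (edgeR adjusted p = 0.0298) did not hold when control replicate 1, control replicate 2 or optimized replicate 3 was left out, and Lpar6 shares 408 exon bases with Rb1 on the other strand. The rises were S1pr1 (1470, 1681 and 2022 counts against 3287, 4436 and 3769; log2 fold change 1.35 ± 0.10 SE, edgeR adjusted p = 6.4e-06) and Gpr35 (1.05 ± 0.14 SE, edgeR adjusted p = 0.000299). The prostaglandin D2 receptor gene Ptgdr2 (0.12) and the oxysterol receptor gene Gpr183 (-0.04) did not pass. Ccrl2, Cmklr1 and Cmklr2 together bind chemerin: Ccrl2 fell, Cmklr1 was not called, and Cmklr2 had 1 count in each of 2 libraries.

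On the ligand side, 24 genes for ligands or the enzymes that make or degrade them were listed, 16 were tested, and 4 rose, 4 fell and 8 did not pass, with a median log2 fold change of -0.07. The genes that fell include 3 that encode ligands or their precursor. Saa3, an acute-phase apolipoprotein of the serum amyloid A family, went from 17774, 21999 and 28669 control counts to 1514, 2755 and 1943 optimized counts (log2 fold change -3.27 ± 0.19 SE, edgeR adjusted p = 1.26e-06). C3, the precursor of C3a, had 23496, 24391 and 30636 against 7929, 4668 and 4580 counts (-1.98 ± 0.21 SE, edgeR adjusted p = 7.71e-05). Anxa1, a ligand of the formyl peptide receptors, had 2912, 3147 and 3715 against 875, 1093 and 991 counts (-1.53 ± 0.09 SE, edgeR adjusted p = 1.29e-06). Each of these was lower in every optimized library than in any control library on the CPM scale. The mRNA of Hc, which encodes complement C5, had a single count over the 6 libraries, and the chemerin gene Rarres2 did not pass (-0.10 ± 0.15 SE). For the ligand and receptor pairs in the list, C3 and C3ar1 were both lower, and Saa3 and Anxa1 were lower together with Fpr2.

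Enzymes that make or degrade the ligands moved in both directions. Cpd, a carboxypeptidase that trims C-terminal basic residues, rose (log2 fold change 1.48 ± 0.12 SE, edgeR adjusted p = 1.41e-05). For platelet-activating factor, Lpcat1, an acetyl- and acyltransferase of its synthesis, rose (0.76) and Pafah1b3, a catalytic subunit of an enzyme that degrades it, rose (0.68), while Lpcat2 (0.12), Pla2g4a (-0.14), Pla2g7 (-0.21), Pafah1b1 (-0.03), Pafah1b2 (-0.07) and Pafah2 (-0.07) did not pass. For ketone bodies, Oxct1, which starts their use in mitochondria, fell (-0.41), and Bdh2 rose from 3, 4 and 9 to 19, 54 and 33 counts (2.89 ± 0.50 SE, edgeR adjusted p = 0.00157). Untested genes of this list were among those that set optimized replicate 1 apart: Mme, which degrades formyl peptides, had 54 counts there against 3 to 6 elsewhere, and Fam3d, a formyl peptide receptor ligand, 36 against 0.

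All 34 genes of the signalling machinery were tested. Of these, 6 rose, 13 fell and 15 did not pass, with a median log2 fold change of -0.08. The Gi alpha subunits that carry most of the receptors' signal did not pass: Gnai2 had 14009 to 22164 counts per library and a log2 fold change of -0.06 ± 0.10 (SE), and Gnai3 one of -0.01 ± 0.08 (SE). Gna15, an alpha subunit that accepts many receptors and couples them to phospholipase C, rose most (445, 475 and 609 counts against 1001, 1312 and 1164; 1.38 ± 0.11 SE, edgeR adjusted p = 7.61e-06). The gamma subunit gene Gng10 rose (0.79) and Gng2 fell (-0.72). Of phosphoinositide 3-kinase gamma, the regulatory subunit gene Pik3r6 fell (-1.18 ± 0.10 SE, edgeR adjusted p = 1.5e-05). The other regulatory subunit gene Pik3r5 fell too (-0.60) and the catalytic subunit gene Pik3cg rose (0.43), both named here for their place in the complex after their values were seen. The call for Pik3cg was lost with library size alone and on log2(FPKM + 1) and log2(FPKM + 0.1). Rac2, a small GTPase of phagocyte migration, fell (-0.84 ± 0.12 SE, edgeR adjusted p = 0.000522).

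Genes that end the signal were among those that fell. The arrestin gene Arrb1 fell (-0.90 ± 0.13 SE, edgeR adjusted p = 0.000452) and so did the receptor kinase gene Grk3 (-0.91 ± 0.23 SE, edgeR adjusted p = 0.0146). Of the RGS genes, which speed the shut-off of G proteins, Rgs18 (-1.64) and Rgs14 (-0.72) fell and Rgs2 rose (0.68). The calls for Grk3 and Rgs18 did not hold when control replicate 1, control replicate 2 or optimized replicate 3 was left out, nor did that for Rgs18, at 7 to 45 counts per library, without optimized replicate 2.

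**Figure D4:**
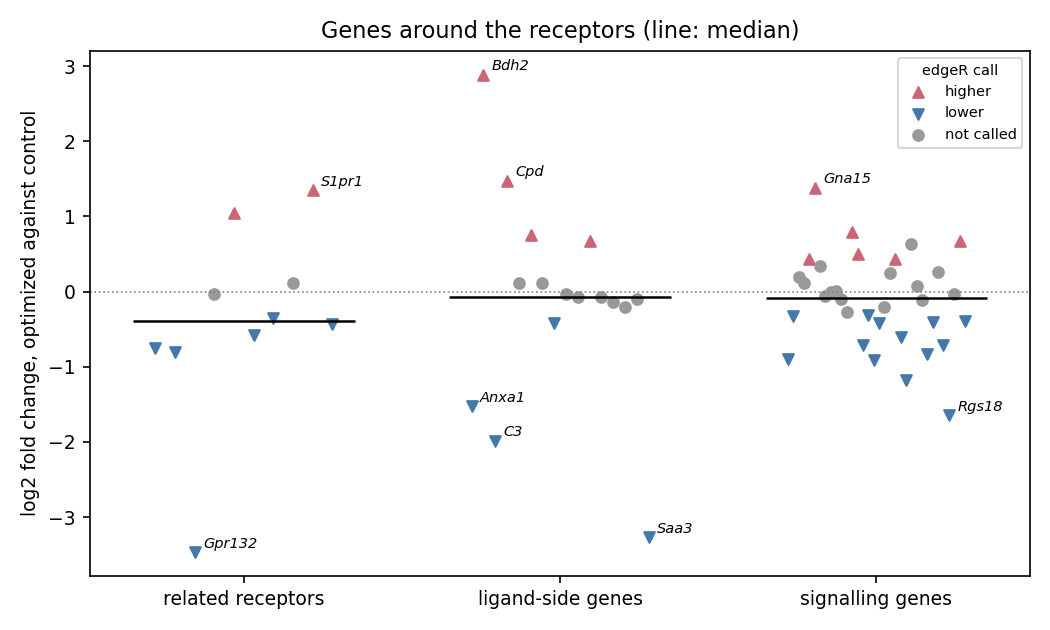
The log2 fold change, optimized against control, of every tested gene among 10 related receptors, 16 ligand-side genes and 34 signalling genes, with triangles for genes called higher (up, red) or lower (down, blue) and grey circles for genes not called. The black lines mark the list medians of -0.40, -0.07 and -0.08, and Gpr132, Saa3 and C3 lie lowest.

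These 3 lists were chosen with earlier results of this comparison known, and their medians stand beside 0.008 for all tested genes. Called genes made up 80% of the tested related receptors, 50% of the ligand-side genes and 55.9% of the signalling genes. Among all tested genes 29.8% were called, 15.2% lower and 14.7% higher. Since the lists were so chosen, nothing is read from these shares. Without optimized replicate 1 the counts were 2 higher and 6 lower for the related receptors, 4 and 4 for the ligand-side genes, and 7 and 13 for the signalling genes. The count of signalling genes called lower was 7 without control replicate 1 and 8 without optimized replicate 3.

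The genes whose profile over the 6 libraries lay nearest to the extreme members, by the root mean square difference of centred log2 CPM among 13181 genes, were named as a description. Nearest to Fpr2 were Adgre4, an adhesion receptor of myeloid cells (0.282), Ccr3, a chemokine receptor (0.425), and Ccl5, a chemokine (0.441). Adgre4 had 86, 108 and 110 control counts and none in any optimized library, Ccr3 had 57, 48 and 82 counts against 0 in each, and Ccl5 had 1954, 2118 and 3080 against 67, 90 and 64. Their log2 fold changes were -9.57, -8.86 and -4.81, against -5.92 for Fpr2. With no optimized counts of Adgre4 and Ccr3, the size of their fall cannot be measured, and their values give the direction only. For Fpr2, Adgre4 and Ccr3, with few or no optimized counts, the prior count of 2 used for likeness narrows such differences. Nearest to C5ar2 were Epas1, a hypoxia-inducible transcription factor (0.053; log2 fold change 0.90), Mlec, a lectin of the endoplasmic reticulum (0.07; 0.89), and Vegfa, the vascular growth factor gene (0.073; 0.94).

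The protein-coding genes on either side of the members are given for their surroundings. Beside C3ar1 lie Foxj2 (log2 fold change 0.10) and Necap1 (-0.23), beside Gpr84 Copz1 (-0.04) and Zfp385a (0.04), and beside the C5a receptor pair Dhx34 (-0.21) and Inafm1 (0.55, edgeR adjusted p = 0.033). Of these, only Inafm1 passed. Beside Ptafr, Dnajc8 did not pass (-0.15) and Eya3 fell (-0.48, edgeR adjusted p = 0.00208). Kntc1 beside Hcar2 fell more than Hcar2 was lower (-1.38 ± 0.15 SE, edgeR adjusted p = 7.72e-05), and Ficd beside Cmklr1 did not pass (0.17). Has1, Fpr-rs4, Hcar1 and Wscd2 were not tested. Only genes that do not overlap the member were considered. For Fpr2 this gave Fpr-rs4, 127780 bases away, and passed over Fpr3, which shares exon bases with Fpr2.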

How the data were processed

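The 6 libraries of mouse microglia were analysed, 3 control and 3 optimized, grouped and numbered by their labels. HISAT2 was the aligner, mm39 the genome build, and featureCounts gave the quantification of the paired-end reads, per the study's methods. The authors deposited raw counts and FPKM, each in its own table, for 41079 genes. Tool versions, annotation, strand setting and the treatment of reads on several genes are not given in the sources used here. Reads of genes that share exon bases with another gene may therefore be split or lost. Besides the overlaps given in the text, this holds for Gpr35, Ptgdr2, S1pr1, S1pr2, Hc, Rarres2, Fam3d, Pla2g7, Pafah1b2, Pafah1b3, Oxct1 and Rgs2. Of the list genes not named above, it holds for Ffar4, Bdh1, Gna13, Gnb2, Gng12, Ric8a, Plcb3, Dock2, Elmo1, Arrb2 and Rgs19. The tables hold no columns of the authors' own comparisons.

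Deposited counts were fitted in R 4.3.3 with edgeR 4.0.16: filterByExpr (14618 genes kept), TMM factors, and the quasi-likelihood test of optimized against control, with Benjamini-Hochberg adjustment over all genes tested and a threshold of 0.05. CPM are counts per 1000000 of the TMM-scaled total of the kept genes. The SE is the log2 fold change over the square root of F. The fit was tested on simulated data. FPKM, deposited by the authors, were used as they are to compare levels between genes. Alternatives used DESeq2 1.42.0, limma 3.58.1 on log2(FPKM + 1) and log2(FPKM + 0.1), other scalings and filters, a replicate block, and each library left out in turn. Totals of 20628148 to 27261839 counts make genes with few counts imprecise. Replicates of a condition differed by more than sampling noise, so none was counted as a copy of another.

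The members and the lists were chosen with earlier results of these data known. Named were all members, every called gene and the lowest and highest tested gene of each list (up to 10 a list by size of the log2 fold change), the 3 genes most like the lowest and the highest member at a mean of at least 1 CPM, the protein-coding neighbours, and the markers. Pik3r5, Pik3cg and the list genes named as not tested or not passing were named outside this rule, after their values were seen. Likeness used log2 CPM with a prior count of 2. Loci and upstream windows came from GRCm39 with GENCODE M39, matched by symbol (9 of 9).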

Additional observations from a re-analysis of the deposited data

How the results depend on the processing

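Over 14 alternatives no receptor's log2 fold change changed sign (0 of 126 values), and 15 of 126 moved by more than the spread between replicates. Of these, most were on the FPKM scale and the rest with library size alone. C3ar1 read -0.65 with library size alone and -0.66 on either FPKM scale, Ptafr -2.48 with library size alone and on log2(FPKM + 0.1), and Cmklr1 -0.27, -0.28 and -0.29 with library size alone, on log2(FPKM + 1) and on log2(FPKM + 0.1). Fpr2 read -3.14 on log2(FPKM + 1) and -5.33 on log2(FPKM + 0.1), and Fpr1 read -2.32 on log2(FPKM + 1). The higher members moved as well: C5ar2 read 0.56 on log2(FPKM + 1) and 0.78 on log2(FPKM + 0.1), and Gpr84 0.36 on either FPKM scale. These values of Fpr1, Fpr2, C5ar2 and Gpr84 were smaller in size than in the main fit, and those of C3ar1, Ptafr and Cmklr1 larger. Of 112 counts for the whole table and the 3 lists, 109 stayed within 1.5 times their value. The exceptions were in the signalling genes: 3 rather than 6 were called higher by limma on log2(FPKM + 0.1), and leaving out each library in turn gave 7 to 13 called lower against 13, with 7 without control replicate 1 and 8 without optimized replicate 3, fits with fewer samples. Scaling by library size alone called 1513 genes higher and 3168 lower and shifted the median of all genes to -0.121, so that 32.3% of called genes were higher against 49.1%; limma gave 30.5% on log2(FPKM + 1) and 32.8% on log2(FPKM + 0.1). A replicate block, which pairs libraries by their number, called 2401 higher and 2523 lower against 2142 and 2218. The deviations of same-numbered libraries correlated by 0.273, -0.012 and 0.185. With 3 libraries per condition these values cannot settle whether the numbers pair the samples, and the main fit did not pair them.

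Few counts limit the precision of Fpr2 in the optimized cultures (12 in all), of Gpr132 and of Bdh2.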
